A study of Mus musculus with 6 samples.

Results

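The imprinted Dlk1-Dio3 locus of mouse chromosome 12 holds one of the densest groups of miRNA genes in the genome, and the miRNAs described here are those that lie outside its Rtl1-antisense stretch. They were chosen by name: the 46 miRNA numbers known from the locus, with any letter and either arm, without the numbers that overlap Rtl1. Of these numbers 40 had an entry, which gave 63 members of the 718 small RNA entries measured, 479 of which carried a miRBase name. The members came from 42 hairpins, were 26 5p arms and 37 3p arms, and covered both arms of 21 hairpins. No entry was listed for miR-453, miR-544, miR-654, miR-679, miR-758 or miR-3070.

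Small extracellular vesicles (sEVs) were collected from the medium of cultured islets of wild-type C57/B6J mice, and their small RNAs were sequenced. The 3 nid-sEV libraries came from islets of mice on a normal chow diet (NCD) and the 3 aid-sEV libraries from islets of mice on a high-fat diet (HFD), a model in which beta cells compensate for the diet. The diet was the only labelled difference: all 6 libraries shared strain, genotype and the label exosomes. The labels do not say whether replicates came from separate animals, so the p-values measure the spread between these libraries, which may be technical. A preparation from whole islets holds vesicles of every cell type in the islet, and a change in the number of vesicles from a cell type cannot be told apart from a change in the RNA per vesicle.

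Genes of the Dlk1-Dio3 locus are expressed by parent of origin. The protein-coding genes Dlk1, Rtl1 and Dio3 are expressed from the paternal chromosome, and the non-coding RNAs Meg3, Rian and Mirg from the maternal one, together with the miRNAs, which are cut from these long maternal transcripts. The miRNAs are abundant in the embryo, brain and endocrine cells, and lower MEG3 and miRNA levels from this locus have been described in islets of people with type 2 diabetes. A miRNA hairpin yields a mature strand from its 5′ side (5p) and another from its 3′ side (3p), usually in unequal amounts, and a mature strand finds its targets chiefly through its seed, bases 2 to 8.

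In RefSeq on GRCm38.p6, the hairpins of 62 members had a record, and these 41 hairpins lay in 184.269 kb at chr12:109563692-109747960. All but 1 were on the plus strand. The exception was Mir299b, which lies opposite Mir299a. Going along the locus in the direction of transcription, 10 members belonged to the Meg3 side (miR-770, miR-673, miR-493, miR-337, miR-540 and miR-665), 3 to the Rian side (miR-341, miR-1188 and miR-370) and 50 to the miR-379/miR-410 cluster, which ends in Mirg. By the GENCODE annotation 1 hairpin (Mir770) lay within Meg3 and overlapped an exon, 3 lay in introns of Rian, and 13 lay within Mirg, of which 9 overlapped an exon.

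The sequences of the members that carry the results are given with the seed in capitals, as RefSeq has them. The first set shows both arms of 4 hairpins in which an arm that was all but absent from nid-sEVs was seen in every aid-sEV library. miR-379 and miR-411 lie next to each other at the start of the cluster (chr12:109709060-109709125 and chr12:109710175-109710256, plus strand, outside the annotated exons of Meg3, Rian and Mirg). miR-329 lies at chr12:109713481-109713577 and miR-673 at chr12:109571990-109572080, both on the plus strand.
miR-379-5p: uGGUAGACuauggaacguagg
miR-379-3p: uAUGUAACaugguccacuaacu
miR-411-5p: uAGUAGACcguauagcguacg
miR-411-3p: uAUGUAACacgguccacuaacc
miR-329-5p: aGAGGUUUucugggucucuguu
miR-329-3p: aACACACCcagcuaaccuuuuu
miR-673-5p: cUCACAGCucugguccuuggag
miR-673-3p: uCCGGGGCugaguucugugcacc

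The second set holds the most abundant members, which set the summed level of the locus, with miR-370-3p and miR-540-5p, members detected in every library whose diet groups did not overlap. miR-541 (chr12:109742409-109742498) and miR-409 (chr12:109743158-109743236) lie in introns of Mirg, miR-370 in an intron of Rian (chr12:109618258-109618336), and miR-540 on the Meg3 side (chr12:109586080-109586146), all on the plus strand.
miR-541-5p: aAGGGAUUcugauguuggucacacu
miR-409-5p: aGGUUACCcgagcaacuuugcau
miR-381-3p: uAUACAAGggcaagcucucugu
miR-300-3p: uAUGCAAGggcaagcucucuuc
miR-370-3p: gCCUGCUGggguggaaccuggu
miR-540-5p: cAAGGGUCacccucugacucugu

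The 60 members with a mature sequence in the reference had 57 distinct seeds, so the locus is mostly not a family by seed. Only 3 seeds were shared between members. miR-379-3p and miR-411-3p had the seed AUGUAAC and differed at 2 of 22 positions when laid side by side from the 5′ end. miR-379-5p shared GGUAGAC with miR-1193-5p, and miR-299a-3p shared AUGUGGG with miR-299b-3p, whose listed sequence repeats the start of miR-299a-3p, so that reads of this pair may not be assignable to 1 of them. miR-381-3p and miR-300-3p differed at 3 of 22 positions, including the seed. How reads of such near-identical strands were divided was not given in the sources used here.

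The table gives reads scaled to the library total (RPM), and whole reads could be recovered from it. The libraries differed in depth, with 50534 to 129152 reads in nid-sEVs and 122266 to 519315 in aid-sEVs. A single read was worth 7.74 to 19.8 RPM in nid-sEVs and 1.93 to 8.18 RPM in aid-sEVs. In the library NCD replicate 1, 33.5% of reads had no miRBase name, against 6.61 to 9.46% in the others. Members with at least 1 read numbered 42, 31 and 28 in nid-sEV replicates 1 to 3, and 58, 60 and 51 in aid-sEV replicates 1 to 3. The 20 members seen in all 6 libraries carry the firmest values. A count of 0 allows up to 3 reads, which is 12.2 RPM over the pooled nid-sEV libraries and 59.4 RPM in the shallowest of them. All intervals and limits cover counting error only.

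**Figure D1:**
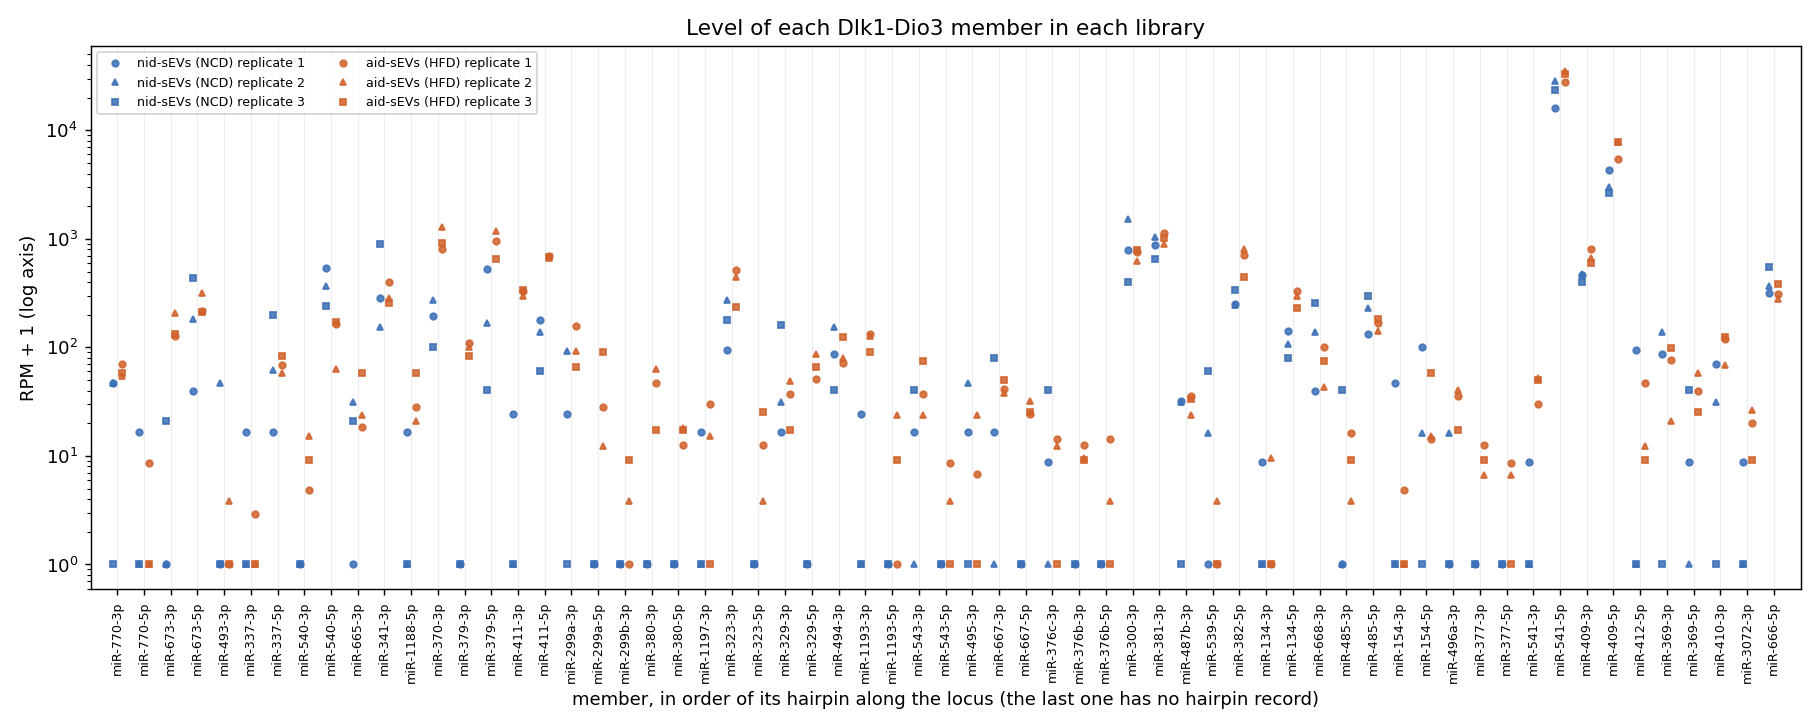
Level of each of the 63 members in each of the 6 libraries, on a log axis of RPM + 1, in the order of the hairpins along the locus (blue, nid-sEVs, and orange, aid-sEVs; circle, triangle and square are replicates 1 to 3; a point at 1 is a count of 0). miR-541-5p and miR-409-5p stand above every other member in all libraries, and the row of blue points at the bottom shows the members without a read in nid-sEVs, 15 of which had none in any of the 3.

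The members together took 2.59, 3.78 and 3.19% of all reads of nid-sEVs, against 4.35, 5.32 and 4.96% of those of aid-sEVs, so the groups did not overlap. Summed over the members, the level was 31869 ± 5966 RPM (SD, n = 3) in nid-sEVs and 48792 ± 4893 RPM (SD, n = 3) in aid-sEVs, a ratio of 1.53. No test is given for this sum, since the members were chosen with results of these data known. Another scaling moved it: divided by TMM factors it was 26748 RPM in nid-sEVs and 58174 RPM in aid-sEVs, and as a share of miRBase-named reads alone 38692 and 52976 RPM.

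Most of this sum was a single strand. miR-541-5p, from the hairpin in an intron of Mirg, was the seventh most abundant entry of the whole table in both groups and made up 61.6 to 75.1% of the members' reads. Its level was 15950, 28399 and 23549 RPM in nid-sEVs and 28166, 35495 and 33108 RPM in aid-sEVs. The second nid-sEV library was slightly above the lowest aid-sEV library, so the groups overlapped. The log2 fold change was 0.54 (SE 0.29), with an adjusted p of 0.256 in limma, which did not pass. With TMM factors it was 1.04 and passed (adjusted p 0.0445).

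miR-409-5p, the next most abundant member, was measured at 4290, 3015 and 2671 RPM in nid-sEVs and at 5392, 7881 and 7778 RPM in aid-sEVs. Every aid-sEV library lay above every nid-sEV library, and its rank among all entries was 46 in nid-sEVs and 23 in aid-sEVs. The log2 fold change of 1.09 (SE 0.35) had an adjusted p of 0.0897 in limma and did not pass the threshold of 0.05. Without NCD replicate 1 it was 0.0437, and with TMM factors 0.0382 at a log2 fold change of 1.58.

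Without miR-541-5p the other 62 members summed to 9957, 9441 and 8311 RPM in nid-sEVs and to 15366, 17712 and 16530 RPM in aid-sEVs, a ratio of 1.79. Leaving out miR-409-5p as well gave 5911 ± 446 and 9519 ± 669 RPM (SD, n = 3), a ratio of 1.61. The separation of the sums therefore did not need either of the abundant strands. The spread of these sums between libraries was small next to the gap between the groups.

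**Figure D2:**
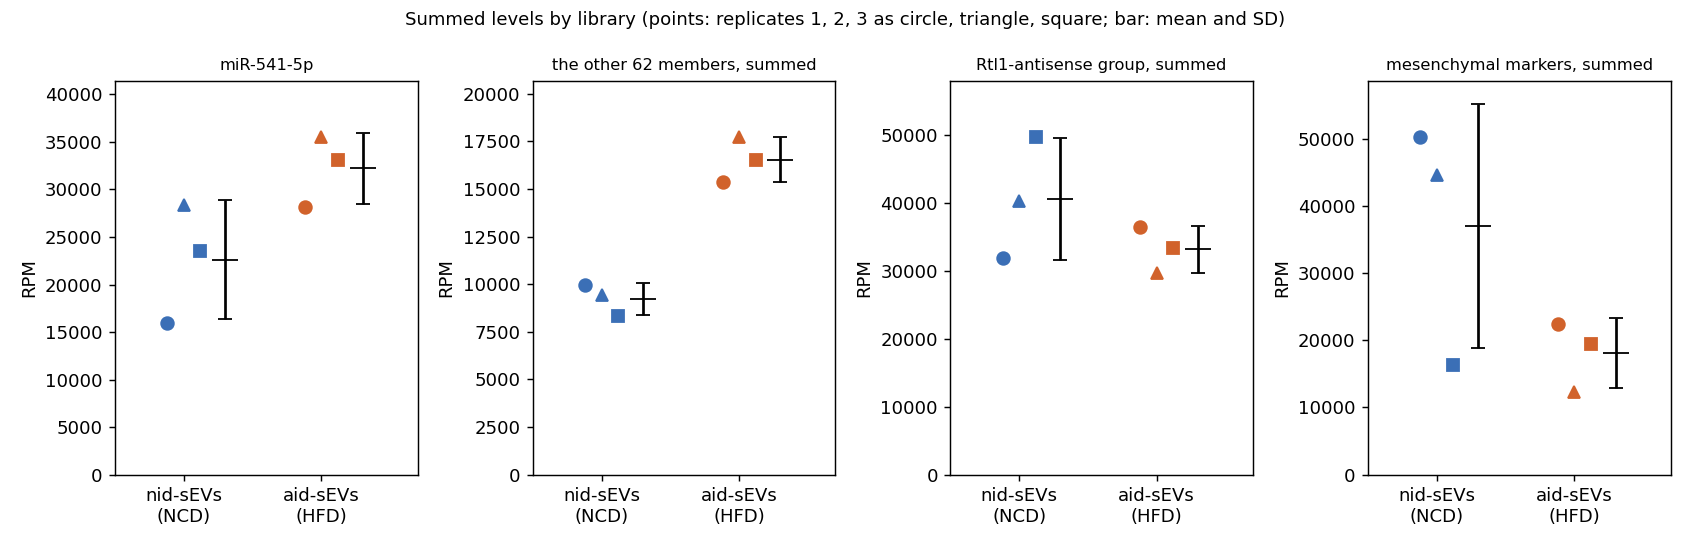
RPM of miR-541-5p, of the other 62 members summed, of the Rtl1-antisense group summed and of the mesenchymal marker miRNAs summed, by library (points; circle, triangle and square are replicates 1 to 3) with the mean and SD of each group of 3 (bars). The sum of the other 62 members lies between 8311 and 9957 RPM in nid-sEVs and between 15366 and 17712 RPM in aid-sEVs, while the groups overlap for miR-541-5p and for the Rtl1-antisense group.

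The Rtl1-antisense miRNAs (miR-431, miR-433, miR-127, miR-434, miR-3071 and miR-136) are the nearest neighbours, cut from the same maternal strand between the Meg3 and Rian sides. Their 11 entries summed to 31854, 40216 and 49670 RPM in nid-sEVs and to 36512, 29624 and 33378 RPM in aid-sEVs, and none of the 11 was called in either direction, where 15.6% of all entries were called higher and 1.81% lower. The members' sum over that of the Rtl1-antisense group was 0.81, 0.94 and 0.64 in nid-sEVs and 1.19, 1.80 and 1.49 in aid-sEVs. The ratio is free of the library total, and its groups did not overlap. It was not tested. Most of the Rtl1-antisense sum was miR-127-3p, at 36967 RPM on average in nid-sEVs and 29017 RPM in aid-sEVs. As miR-541-5p made up 61.6 to 75.1% of the members' reads, the ratio was largely that of these strands. No ratio without them is given, so it does not describe the rarer strands. Log2 fold changes were above 0 for 6 of the 11 entries. Only miR-434-5p had every aid-sEV library above every nid-sEV library (292.1 and 635.4 RPM on average, adjusted p 0.219 in limma).

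In the fit of all 718 entries (limma on log2(RPM + 1), called at an adjusted p under 0.05 and a change of more than 1 on the log2 scale), 14 of the 63 members were called higher in aid-sEVs and 0 were called lower. Of all entries 15.6% were called higher and 1.81% lower, so that the members' 14 calls were not far from the background. At an unadjusted p under 0.05, 23 members were higher and 0 lower, against 158 and 42 of the 718 entries, and edgeR, edgeR without a filter and DESeq2 also called 0 members lower. Of the 14 called, 9 had no read in any nid-sEV library, 3 had 1 to 3 reads there, and 2 were detected in all libraries. Members without reads in the shallower group passed only through the group in which they were seen, so their count says little by itself.

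Every aid-sEV library was above every nid-sEV library for 25 members, where 24.2% of all entries behaved so, and below for 1 member (7.52% of all entries). Among the 20 members detected in all libraries these numbers were 7 (20.5% of such entries) and 1 (20.1%). The median log2 fold change was 1.71 over the members and 1.11 over all entries. Over those detected in all libraries it was 0.40 for the members and -0.21 for such entries in general, and 13 of the 20 members were above 0, against 43.8% of such entries. With groups at 0 set to their counting bound, the medians were 1.22 over 54 members and 0.46 over 625 entries. Dividing by TMM factors moved the median of all entries to 1.43 and that of the members to 2.09.

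**Figure D3:**
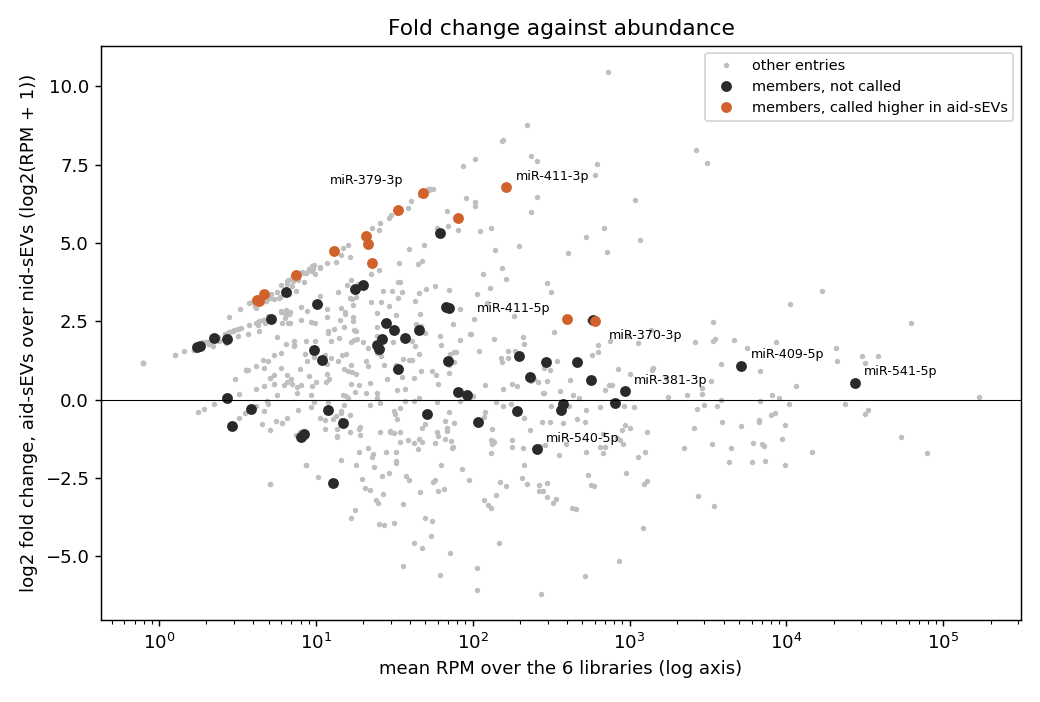
Log2 fold change of aid-sEVs over nid-sEVs on the log2(RPM + 1) scale against the mean RPM over the 6 libraries (log axis), for the members called higher (orange), the other members (black) and all remaining entries (grey). The called members are mostly rare, along the upper edge set by a count of 0 in nid-sEVs; miR-370-3p and miR-411-5p are the 2 called members detected in all libraries.

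The called members detected in all libraries were miR-370-3p and miR-411-5p. miR-370-3p, the outermost miRNA of the Rian side, is known for acting on the fatty acid oxidation enzyme Cpt1a. It was at 193.6, 274.1 and 98.9 RPM (25, 18 and 5 reads) in nid-sEVs and at 803.0, 1295 and 924.2 RPM in aid-sEVs. All aid-sEV libraries were well above all nid-sEV libraries. The pooled level was 5.07-fold higher (95% interval 3.80 to 6.93), with a log2 fold change of 2.50 (SE 0.56) and an adjusted p of 0.0301 in limma. edgeR gave 0.0164. The limma call was lost without NCD replicate 2 (0.0535) and without HFD replicates 1, 2 or 3 (0.0723, 0.106 and 0.0646).

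miR-411-5p was at 178.1, 137.0 and 59.4 RPM (23, 9 and 3 reads) in nid-sEVs and at 689.4, 670.0 and 678.8 RPM in aid-sEVs. The aid-sEV libraries were nearly alike, at 679.4 ± 9.70 RPM (SD, n = 3), and far above the highest nid-sEV library. The pooled ratio was 4.78 (95% interval 3.40 to 6.91) and the log2 fold change 2.57 (SE 0.58), with an adjusted p of 0.0301 in limma and 0.0275 in edgeR. Without NCD replicate 2 the adjusted p was 0.0771, and without HFD replicates 1, 2 or 3 it was 0.0881, 0.0981 and 0.0679. Among entries detected in all libraries and tested alone, these 2 of 20 members were called higher (10.5% of such entries) and 0 lower (6.85%).

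The passenger strand of the same hairpin, miR-411-3p, was the called member with the highest log2 fold change. It had 3, 0 and 0 reads in nid-sEVs (23.2 RPM in the first) and 170, 105 and 41 reads in aid-sEVs (327.4, 298.1 and 335.3 RPM). The pooled ratio was 26.0 (95% interval 8.82 to 126.8). The adjusted p was 0.0247 in limma and 0.0120 in edgeR. It ranged from 0.00373 without NCD replicate 1 to 0.0943 without HFD replicate 2, and only the fit without NCD replicate 1 kept the call among the 6 that left out a library.

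miR-379-3p, which has the same seed, had no read in nid-sEVs, against 57, 35 and 10 in aid-sEVs (109.8, 99.4 and 81.8 RPM). Its pooled aid-sEV level was 8.39-fold the limit of 3 reads over the nid-sEV libraries. Here and below, folds of this limit leave out the counting error of the aid-sEV reads, so they are not lower bounds. The adjusted p was 0.00644 in limma and 0.00422 in edgeR, and the call held in all 6 fits that left out a library and with reads thinned to the smallest library. With no nid-sEV read, leaving out a nid-sEV library could not move its log2 fold change (6.60), so those fits say little. The major strand miR-379-5p, from the hairpin that gives the cluster its name, was at 526.5, 167.5 and 39.6 RPM in nid-sEVs and 951.3, 1192 and 646.1 RPM in aid-sEVs. Its groups did not overlap, but nid-sEVs spread more than 10-fold, and the log2 fold change, 2.56 with an SE of 0.97, did not pass (adjusted p 0.146). Without NCD replicate 1 it was 0.0330. miR-379 is known in mouse liver as a glucocorticoid-responsive regulator of lipid secretion.

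Other strands near the start of the cluster were called from few reads. miR-329-5p had no read in nid-sEVs, against 26, 30 and 8 in aid-sEVs (50.1, 85.2 and 65.4 RPM). Pooled, this was 5.27-fold the nid-sEV limit, with an adjusted p of 0.00847 in limma. That call held in the 6 fits that left out a library and was lost with thinned reads (0.300). Here too, leaving out a nid-sEV library could not move the log2 fold change (6.05). miR-380-3p had 24, 22 and 2 reads in aid-sEVs and none in nid-sEVs, 3.95-fold the nid-sEV limit when pooled. Its adjusted p in limma was 0.0175, and 0.0535 without NCD replicate 2. miR-380-3p matched miR-379-3p at 16 of 22 positions.

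Pooled, miR-299a-5p (14, 4 and 11 aid-sEV reads) was at 2.39-fold the nid-sEV limit and miR-667-5p (12, 11 and 3 reads) at 2.14-fold. Neither had a read in nid-sEVs. Their adjusted p-values in limma were 0.0247 and 0.0150, and without NCD replicate 2 they were 0.0771 and 0.0535. miR-299a-5p also lost its call without NCD replicate 3 (0.0543) and without HFD replicate 1 (0.0505). miR-380-5p had 6, 6 and 2 aid-sEV reads, 1.15-fold the nid-sEV limit when pooled, too close to it to establish a higher level. Its adjusted p in limma was 0.0201, and 0.0771 and 0.0509 without NCD replicates 2 and 3. miR-376b-3p, which is known to act on the autophagy genes Atg4c and Becn1, miR-377-3p and miR-540-3p had 8 to 10 aid-sEV reads in all and levels at or under the nid-sEV limit, so no fold is given although limma called them (adjusted p 0.0242, 0.0267 and 0.0358). Their calls were lost without NCD replicates 2 and 3, and that of miR-540-3p also without NCD replicate 1. miR-380-3p, miR-299a-5p, miR-667-5p, miR-380-5p, miR-376b-3p, miR-377-3p and miR-540-3p did not pass edgeR's filter on low counts. Neither edgeR without that filter nor DESeq2 called any of these strands.

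On the Meg3 side miR-673-3p had 0, 0 and 1 read in nid-sEVs, against 66, 73 and 16 in aid-sEVs (127.1, 207.2 and 130.9 RPM). The pooled ratio was 38.3 (95% interval 6.77 to 1521), wide because of the single nid-sEV read, and the adjusted p was 0.0363 in limma and 0.0161 in edgeR. In the 6 fits that left out a library it was 0.00891 without NCD replicate 3 and 0.0559 to 0.141 in the others. miR-541-3p, the minor strand of the most abundant hairpin, had 1 read in nid-sEVs, against 15, 18 and 6 in aid-sEVs, a pooled ratio of 9.63 (95% interval 1.63 to 390) with an adjusted p of 0.0493. Its call held without NCD replicate 1 (0.0101) and was lost without any other library (0.0972 to 0.146). Of 16 other fits that tested miR-541-3p, the fit with the replicate number as a block aside, 3 called it. edgeR without its filter and DESeq2 did not.

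Of the 24 members that passed edgeR's filter on low counts, 6 were called higher in aid-sEVs (19.6% of the 245 entries tested) and 0 lower (8.57%). DESeq2 called 7 of the 63 higher (9.05% of all entries) and 0 lower (6.96%). The 6 in edgeR were miR-379-3p, miR-673-3p, miR-411-3p, miR-370-3p, miR-411-5p and miR-1193-3p, the last of which limma did not call (adjusted p 0.052) and which is named here after its values were seen. miR-1193-3p had 3, 0 and 0 reads in nid-sEVs and 69, 45 and 11 in aid-sEVs, a pooled ratio of 10.3 (95% interval 3.44 to 50.6).

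The difference in depth between the diets bears on every strand at 0. NCD replicate 1 and HFD replicate 3 had similar totals, 129152 and 122266 reads, and were set side by side as 1 library against 1. In this pair 46 of the 63 members were higher in the aid-sEV library and 12 lower (53.9% and 35.7% of all entries). The pair was matched on the total alone: 33.5% of the reads of NCD replicate 1 had no miRBase name, against 9.23% in HFD replicate 3, and its summed endocrine markers were lower (79209 and 218098 RPM). Of the 14 called members, 4 had a read in NCD replicate 1. That all 14 were higher in HFD replicate 3 follows from how they were called and adds nothing. With all libraries thinned to the smallest one in 1 random draw, 5 members were called higher (7.80% of all entries) and 0 lower (0.696%). Another draw could change which rare strands are called. The 5 were miR-379-3p, miR-380-3p, miR-667-5p, miR-411-3p and miR-411-5p.

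The arms of a hairpin come from the same precursor, and their ratio within a library does not depend on the library total. In miR-673 the 3p strand made up 0, 0 and 4.35% of the hairpin's reads in nid-sEVs and 37.3, 39.7 and 38.1% in aid-sEVs. Pooled, these were 1 of 40 reads (2.50%, 95% Wilson interval 0.443 to 12.9) and 155 of 403 (38.5%, 33.8 to 43.3). The major strand miR-673-5p was at 38.7, 182.7 and 435.4 RPM in nid-sEVs and at 213.7, 315.1 and 212.7 RPM in aid-sEVs. Its groups overlapped (log2 fold change 0.73, SE 0.95, adjusted p 0.658 in limma, and -0.22 without NCD replicate 1), and the pooled ratio was 1.57 (95% interval 1.12 to 2.26).

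In miR-411 the 3p share was 11.5, 0 and 0% in nid-sEVs and 32.2, 30.8 and 33.1% in aid-sEVs. Pooled, it was 3 of 38 reads (7.89%, 2.72 to 20.8) and 316 of 993 (31.8%, 29.0 to 34.8). In miR-379 it was 0 of 81 reads in nid-sEVs (Wilson upper limit 4.53%) and 102 of 1095 in aid-sEVs (9.32%, 7.73 to 11.2). In each of these hairpins the aid-sEV libraries gave nearly the same share, and the pooled intervals of the 2 diets did not overlap. These hairpins were described because the 3p strand had at least 20 reads, which it reached in aid-sEVs alone, and that strand was among the members called higher, so the shares restate those calls against the other arm and are no independent evidence. The pooled intervals treat the reads of a group as a single library.

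miR-329 went the other way by arm. Its 3p strand was the only strand seen in nid-sEVs, 12 of 12 reads (95% Wilson interval 75.8 to 100%), and was 42.2, 36.2 and 20% in aid-sEVs, 38 of 102 reads in all (37.3%, 28.5 to 46.9). The strand seen in aid-sEVs alone was miR-329-5p, which met the minimum of 20 reads through aid-sEVs and was itself called higher, so this share too restates a call. miR-329-3p itself was at 68.1 ± 78.5 RPM in nid-sEVs and 33.7 ± 16.1 RPM in aid-sEVs (SD, n = 3), and its log2 fold change, -0.45 with an SE of 1.07 (adjusted p 0.816 in limma), turned positive with TMM factors and without NCD replicate 3. In miR-667 the 5p strand was absent from 6 nid-sEV reads and made 26 of 66 aid-sEV reads, and in miR-299a it was absent from 9 and made 29 of 150. Both hairpins had too few nid-sEV reads to separate the shares, since the Wilson intervals overlapped.

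miR-409 and miR-541 were the most deeply read hairpins. The 3p share of miR-409 was 9.77, 13.5 and 12.9% in nid-sEVs and 12.9, 7.77 and 7.13% in aid-sEVs, and the groups overlapped. miR-541-3p was 0.0485, 0 and 0% of the hairpin's reads in nid-sEVs and 0.102, 0.144 and 0.148% in aid-sEVs. The libraries did not overlap, but miR-541-3p was itself called higher, so this share too restates a call. The counts of 0 say little, since the Wilson upper limits in NCD replicates 2 and 3 were 0.206% and 0.322%, above every aid-sEV share. Pooled, miR-541-3p was 1 of 5116 and 39 of 31217 reads, with overlapping intervals (0.00345 to 0.111% and 0.0914 to 0.171%). miR-369 had only 23 reads in nid-sEVs and 101 in aid-sEVs, and the share of miR-369-3p was spread from 0 to 100% in nid-sEVs and from 25.9 to 80.0% in aid-sEVs. Over all members the ratio of aid-sEVs to nid-sEVs was about the same for both arms, 1.54 for the 37 3p members and 1.53 for the 26 5p members, neither tested.

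**Figure D4:**
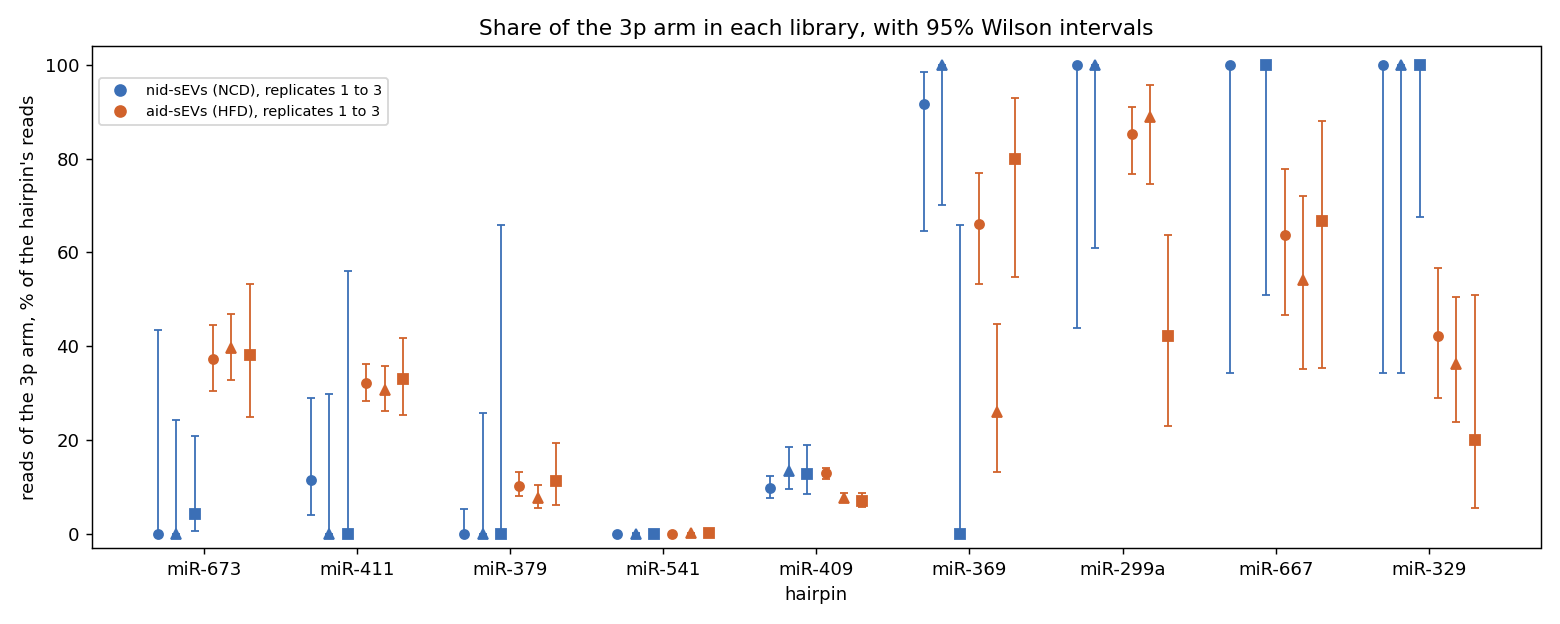
Reads of the 3p arm as a percentage of all reads of the hairpin, by library, with 95% Wilson intervals (blue, nid-sEVs, and orange, aid-sEVs; circle, triangle and square are replicates 1 to 3; libraries without a read of the hairpin are left out). The aid-sEV shares of miR-673 (37.3 to 39.7%), miR-411 (30.8 to 33.1%) and miR-379 (7.69 to 11.2%) lie above all nid-sEV shares, those of miR-329 below, and those of miR-409 and miR-369 overlap.

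By position, the 3 members of the Rian side summed to 495.5, 426.4 and 989.4 RPM in nid-sEVs and to 1232, 1601 and 1235 RPM in aid-sEVs, a ratio of 2.13. That ratio came from miR-370-3p, since its neighbour miR-341-3p was at 286.5, 152.3 and 890.5 RPM in nid-sEVs and 402.5, 286.7 and 253.5 RPM in aid-sEVs (log2 fold change -0.14, SE 0.75, adjusted p 0.917 in limma). The sign of that small difference turned with TMM factors, with centring and without NCD replicate 3 or HFD replicate 3. miR-1188-5p, the third, had 2 reads in nid-sEVs and 28 in aid-sEVs.

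The Meg3 side was level as a whole, at 673.6, 730.9 and 910.3 RPM in nid-sEVs and 670.1, 735.3 and 719.7 RPM in aid-sEVs. Within it miR-540-5p was at 542.0, 365.5 and 237.5 RPM in nid-sEVs and at 161.8, 62.5 and 171.8 RPM in aid-sEVs. It was the only member with every aid-sEV library below every nid-sEV library, although its log2 fold change of -1.58 (SE 0.65) had an adjusted p of 0.181 in limma and 0.0871 in edgeR and did not pass. Its 3p partner, miR-540-3p, was seen in aid-sEVs alone. miR-337-5p had 91.4 ± 94.95 and 68.7 ± 12.6 RPM (SD, n = 3), which overlapped.

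The miR-379/miR-410 cluster without miR-541-5p summed to 8788, 8284 and 6412 RPM in nid-sEVs and to 13464, 15376 and 14575 RPM in aid-sEVs, a ratio of 1.85. Called members numbered 11 of its 50, against 2 of 10 on the Meg3 side and 1 of 3 on the Rian side, where 15.6% of all entries were called higher. The cluster was not uniform. In its middle, miR-381-3p and miR-300-3p, the most abundant members after miR-541-5p and miR-409-5p, did not separate by diet: miR-381-3p was at 874.9, 1051 and 653.0 RPM in nid-sEVs and 1138, 902.8 and 1014 RPM in aid-sEVs (log2 fold change 0.26, SE 0.40, adjusted p 0.702 in limma).

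miR-300-3p was at 789.8, 1523 and 395.8 RPM in nid-sEVs and 752.9, 627.4 and 785.2 RPM in aid-sEVs. Its log2 fold change of -0.12 (SE 0.58, adjusted p 0.910 in limma) changed sign under several settings. miR-668-3p, within Mirg, was at 38.7, 137.0 and 257.3 RPM in nid-sEVs and 100.1, 42.6 and 73.6 RPM in aid-sEVs (log2 fold change -0.70, SE 0.88, adjusted p 0.645). These members overlapped between the groups, and the wide nid-sEV spread set the precision. miR-666-5p and miR-485-5p, each seen in all libraries, had log2 fold changes of -0.33 and -0.35 (adjusted p 0.691 and 0.719) that turned positive with TMM factors.

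Toward Mirg several moderately abundant strands lay higher in every aid-sEV library without passing the test. miR-382-5p was at 247.8, 243.6 and 336.4 RPM in nid-sEVs and 706.7, 797.7 and 441.7 RPM in aid-sEVs (log2 fold change 1.20, SE 0.47, adjusted p 0.158). miR-134-5p, known in neurons for limiting dendritic spine size through Limk1, was at 139.4, 106.6 and 79.2 RPM in nid-sEVs and 331.2, 295.2 and 229.0 RPM in aid-sEVs (log2 fold change 1.41, SE 0.53, adjusted p 0.140). miR-409-3p was at 464.6, 472.1 and 395.8 RPM in nid-sEVs and 801.1, 664.3 and 597.1 RPM in aid-sEVs (log2 fold change 0.62, SE 0.40, adjusted p 0.332). These strands, miR-409-5p, miR-370-3p, miR-411-5p and miR-379-5p were the 7 members detected in all libraries with every aid-sEV library above every nid-sEV library. Only miR-540-5p had its groups apart in the other direction.

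miR-323-3p, near the start of the cluster, was at 92.9, 274.1 and 178.1 RPM in nid-sEVs and 518.0, 448.6 and 237.2 RPM in aid-sEVs, with overlapping groups (log2 fold change 1.20, SE 0.64, adjusted p 0.256). miR-494-3p was at 92.3 ± 56.7 and 91.1 ± 27.6 RPM (SD, n = 3). Most of the remaining members were rare. Of the 63, 31 had at most 3 reads over the nid-sEV libraries and 6 had at most 3 over the aid-sEV libraries. miR-410-3p, the last of the cluster's founding pair, had 9, 2 and 0 reads in nid-sEVs and 61, 24 and 15 in aid-sEVs (log2 fold change 2.94, SE 1.65, adjusted p 0.272). miR-539-5p had 0, 1 and 3 reads in nid-sEVs and 0, 1 and 0 in aid-sEVs. Without NCD replicate 1 it was called lower (adjusted p 0.0462), on 5 reads, the only lower call of a member in any fit. At this depth a nid-sEV level of such a strand is known only to within a few reads.

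**Figure D5:**
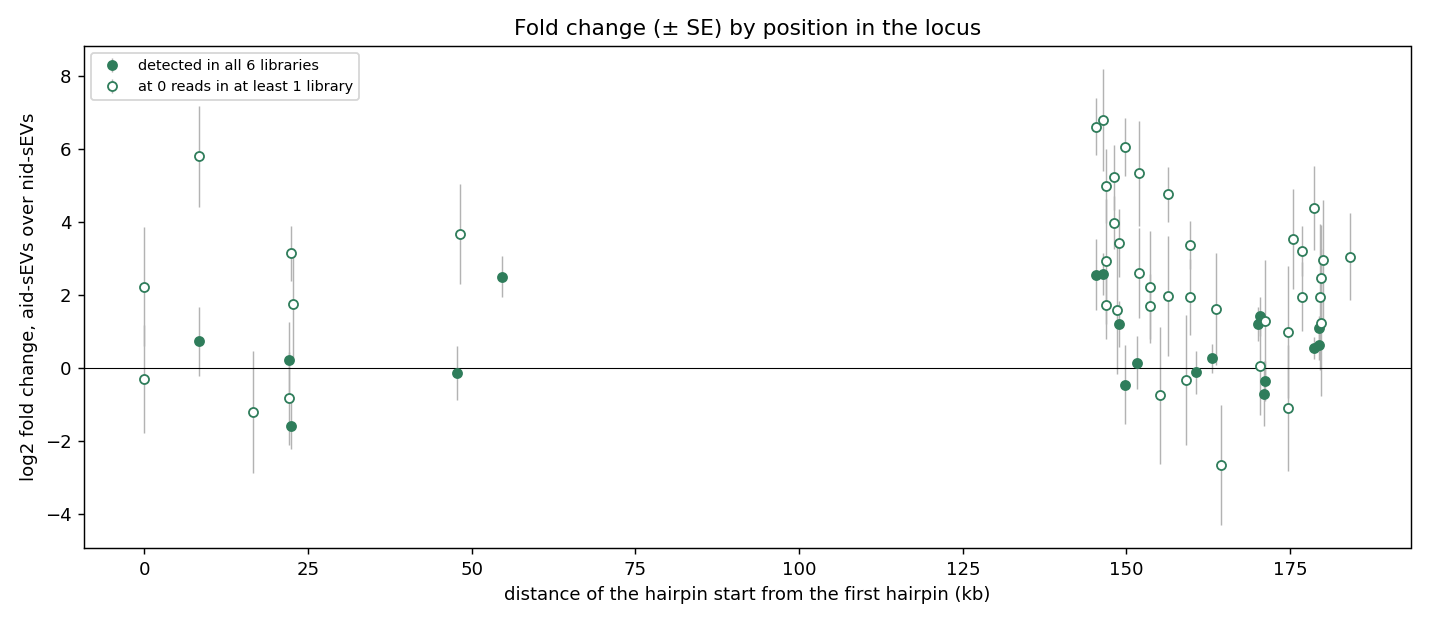
Log2 fold change (± SE of the limma fit) of aid-sEVs over nid-sEVs for the 62 members with a hairpin record, against the distance of the hairpin start from the first hairpin in kb; filled points were detected in all 6 libraries, open points were at 0 in at least 1. Filled points range from -1.58 (miR-540-5p) to 2.57 (miR-411-5p), and the highest values, all open, sit at the start of the miR-379/miR-410 cluster and at miR-673-3p.

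Marker miRNAs of the cell types in and around islets differed between the libraries too. The summed endocrine markers, chiefly miR-375-3p, were at 79209, 201276 and 365002 RPM in nid-sEVs and at 227332, 237892 and 218098 RPM in aid-sEVs, so that they were present in all libraries and lowest in NCD replicate 1. Of the 12 endocrine entries 6 were called higher and 0 lower, and their median log2 fold change was 2.40, above the 1.71 of the members. The endocrine sum did not follow this median, with a ratio of aid-sEVs to nid-sEVs of 1.06. miR-375-3p itself had a log2 fold change of 0.079 and was not called. Only 6 of the 12 entries were detected in all libraries, and the median weights each entry alike, whatever its level. Mesenchymal markers ran the other way among nid-sEVs (50220, 44616 and 16345 RPM) and were at 12364 to 22478 RPM in aid-sEVs, with 0 of 13 called. Blood cell markers were at 4690 to 13225 RPM in nid-sEVs and 752 to 1575 RPM in aid-sEVs, with 2 of 9 called lower, and the liver marker miR-122-5p was at 395.8 to 3000 RPM and at 24.5 to 42.6 RPM and was called lower (adjusted p 0.0163 in limma).

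Endothelial markers summed to 989 to 3717 RPM in nid-sEVs and 681 to 1327 RPM in aid-sEVs, and exocrine markers to 2533 to 9067 and 698 to 3420 RPM, with none called in either list. Neural markers, relevant because the members are also brain miRNAs, summed to 782 to 2553 RPM in nid-sEVs and 2767 to 4196 RPM in aid-sEVs. Of these 9 entries 1 was called higher, where 15.6% of all entries were. It was miR-124-3p, at 74.4 RPM on average in nid-sEVs and 2271 RPM in aid-sEVs (adjusted p 0.00716 in limma). The mean neural sums were 1695 and 3556 RPM, so miR-124-3p was most of the aid-sEV sum. Only this 1 of the 9 entries had every aid-sEV library above every nid-sEV library. The higher neural sum therefore does not describe the rest of the list. The part of these cell types in the members' levels was not tested.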

How the data were processed

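Islet sEV RNA was extracted with a miRNeasy kit, made into small RNA libraries and sequenced on an Illumina NovaSeq (3 NCD and 3 HFD libraries). The submitters' processing notes name fastp 0.23.0, HISAT2 2.2.1 and the build GRCm38. Their settings, and any filter on entries, are not given in the sources used here. The deposited table holds RPM per library, and the authors' own log2 fold changes and p-values, which were not used. The smallest value above 0 in a library was taken as 1 read, which made 100% of values whole reads within 0.02 reads.

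All 718 entries were fitted with limma 3.58.1 (trend) on log2(RPM + 1) with Benjamini-Hochberg adjustment, in R 4.3.3. Folds quoted as ratios pool the reads of a group, with exact 95% intervals. edgeR 4.0.16 (quasi-likelihood) and DESeq2 1.42.0 on recovered reads, pseudocounts of 0.1 and 10, a mean RPM filter of 10, thinned reads, TMM factors, centring, miRBase-named entries only, entries detected in all libraries, eBayes without trend, no limit on the fold change, a replicate block and leaving out each library were alternatives. The scripts were tested on simulated data.

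Members described with values were those called, the 10 most abundant, the 3 largest and 3 smallest changes among members detected in all libraries, and both arms of hairpins whose arms each had at least 20 reads. Others are given as context. The members, the marker lists and the alternatives were chosen with earlier results of these data known. Sequences and hairpin coordinates are from RefSeq, GRCm38.p6, and host genes from GENCODE.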

Additional observations from a re-analysis of the deposited data

How the results depend on the processing

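The number of members called higher in aid-sEVs (14 in limma) depended on the treatment of low values. The share of all entries called, 15.6% in limma, moved too and is given in brackets. The count was 8 with a pseudocount of 10 (8.64%), 9 of the 47 members with a mean of at least 10 RPM (13.4%), 5 with reads thinned to the smallest library (7.80%), 2 of the 20 members detected in all libraries (10.5%) and 18 with TMM factors (17.3%). It was 6 in edgeR with its filter (19.6%) and 6 without it (7.80%), and 7 in DESeq2 (9.05%). Leaving out 1 library at a time gave 2 to 18 calls, with 2 without NCD replicate 2 (4.60%), 7 without NCD replicate 3 (8.50%), 9 without HFD replicate 1 (13.1%) and 18 without NCD replicate 1 (20.9%). The number called lower was 0 to 1 over these fits, the 1 being miR-539-5p without NCD replicate 1, and 0 under every other alternative. The summed level moved beyond its SD from 31869 to 38692 RPM in nid-sEVs over miRBase-named reads only and from 48792 to 58174 RPM in aid-sEVs with TMM factors. The cause was not tested. The log2 fold changes of 7 members, none past the threshold, turned sign. The log2 fold change of miR-300-3p (-0.12) was 0.092 with thinned reads, 0.38 with TMM factors, 0.054 with centring, 0.29 in edgeR without filter and 0.36 without NCD replicate 2. That of miR-329-3p (-0.45) was 0.028 with TMM factors and 0.48 without NCD replicate 3. That of miR-341-3p (-0.14) was 0.36 with TMM factors, 0.037 with centring, 0.56 without NCD replicate 3 and 0.0033 without HFD replicate 3. Over the fits that left out a library the first 3 ranged from -0.61 to 0.36, from -1.15 to 0.48 and from -0.71 to 0.56. That of miR-369-3p (1.24) was -0.31 in edgeR and -0.10 in DESeq2, and ran from -1.01 without NCD replicate 3 to 2.54 without NCD replicate 2. That of miR-673-5p (0.73) was -0.021 in edgeR, and ran from -0.22 without NCD replicate 1 to 1.51 without NCD replicate 3. Those of miR-485-5p (-0.35) and miR-666-5p (-0.33) were 0.14 and 0.17 with TMM factors and 0.064 and 0.084 in edgeR without filter. The other 30 of the 37 members recomputed kept their direction in every alternative that retained them. Some rare members were absent from the filtered fits.

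No pairing by replicate number was seen: the deviations of same-numbered libraries correlated at -0.054, 0.131 and -0.109. With 3 libraries per group these values cannot settle whether the libraries were paired. With the replicate number as a block, 0 members were called higher and 0 lower.

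A nid-sEV read was worth up to 19.8 RPM, so strands below about 59.4 RPM could be missed in the shallowest library, and 8 of the 14 called members had an aid-sEV mean below that level.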
